A study of Homo sapiens with 6 samples.

Results

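Kinesins are motor proteins that walk along microtubules, and the family described here is every gene of the table whose symbol begins with KIF or KIFC followed by a digit. The rule took 39 of 15761 genes. Of these, 38 encode motors. The other, KIF1BP (current symbol KIFBP), encodes a protein that binds kinesins and is no motor itself, so it is counted apart. Enough reads for a test were found for 32 of the 38 motor genes. The remaining 6 (KIF5C, KIF6, KIF12, KIF19, KIF26A and KIF26B) had between 1 and 47 reads summed over all 6 libraries. No row was found for KIF1A, KIF2B, KIF15, KIFC1 and KIF28P, so these motors could not be analysed here.

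Each kinesin couples the splitting of ATP in its motor domain to steps along a microtubule, and the rest of the protein selects the cargo. Most carry vesicles and organelles towards the plus ends of microtubules at the cell's edge, opposite to the motor dynein. Another large group works in cell division, where its members push spindle poles apart, shorten microtubule ends at chromosomes or build the midzone on which the cell cleaves. Transcripts of many mitotic kinesins are known to rise late in the cell cycle.

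Total RNA was sequenced from SK-MES-1 cells, an established human lung squamous carcinoma line, labelled wild type. Exosomes are small vesicles shed by cells, and their source here was fibroblasts from lungs with idiopathic pulmonary fibrosis, a scarring disease. The exosome group (n = 3) was kept for 72 h in complete medium with 20 µg/ml of these vesicles, and the control group (n = 3) in medium without added vesicles. Vesicles from other fibroblasts were not analysed here, so the comparison is with no added vesicle. Whether replicates were independent cultures is not stated in the labels, and p-values therefore measure the spread between these samples, which may be technical.

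Libraries held 11346639 to 13334508 counts, so that 1 CPM (a count scaled to library size and TMM factor) stood for 11.02 to 13.63 reads. Control library 3 and exosome library 3 stood apart from the others of their groups, with a chi-square per gene of 7.41 to 16.2 against them and of 2.31 and 3.18 between libraries 1 and 2. The slope of expression on the GC content of transcripts also moved with the group. Per 10 percentage points of GC it was -0.12, -0.14 and -0.21 log2 units in the controls, and 0.24, 0.17 and 0.06 with exosomes, in replicate order. Fold changes are therefore given from the counts and, where it matters, also after each library's trend on GC content and transcript length was removed, called corrected below. A treatment effect on GC-rich transcripts and a difference in library preparation cannot be told apart in this design. Of the epithelial markers, KRT8, KRT18, KRT19, DSP and CDH1 were present and KRT5, KRT6A and KRT14 were near 0, at 0.0493 to 0.295 CPM in either group. The 12 of 14 epithelial markers with a row summed to 5467 to 5692 CPM in controls and 4317 to 4561 with exosomes. Of the 9 tested, 5 fell and 0 rose, and after correction 7 fell and 0 rose. Among all tested genes 26.1% were lower, and 17.3% after correction. TP63 and SOX2 of this list were low, at 1.56 and 4.48 CPM in controls and 2.21 and 5.41 with exosomes. Neither passed the test in either fit. Among 12 fibroblast markers, 7 had a row, with a summed level of 174 to 192 CPM in controls and 121 to 134 with exosomes. Nearly all of it was LOX, at 169 ± 9.03 and 118 ± 6.25 CPM. PDGFRB was at 7.88 CPM in controls and 6.54 with exosomes, and COL6A3 at 3.41 and 1.38. COL3A1, PDGFRA, THY1 and FAP were at 0 to 0.287 CPM. The leucocyte markers PTPRC and CD3E were at most 0.176 CPM in either group. The part of any marker's change in the kinesin results was not tested.

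With exosomes, 6 kinesin motor genes rose and 10 fell, and 16 did not pass the test (edgeR quasi-likelihood test, Benjamini-Hochberg adjusted p under 0.05 over 12449 genes). Among all tested genes 51.7% were called, 25.6% higher and 26.1% lower, against 18.8% and 31.2% of the motors, so the family's share of calls was near that of the whole table. The median log2 fold change of the motors was -0.02, and that of all tested genes was -0.0042. After correction 9 motors were higher and 5 lower, beside 18.2% and 17.3% of all tested genes. The same 6 genes were higher in both fits, while only 4 of the 10 lower calls remained. In bulk RNA, fewer cells that express a gene and less RNA per cell cannot be told apart.

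**Figure D1:**
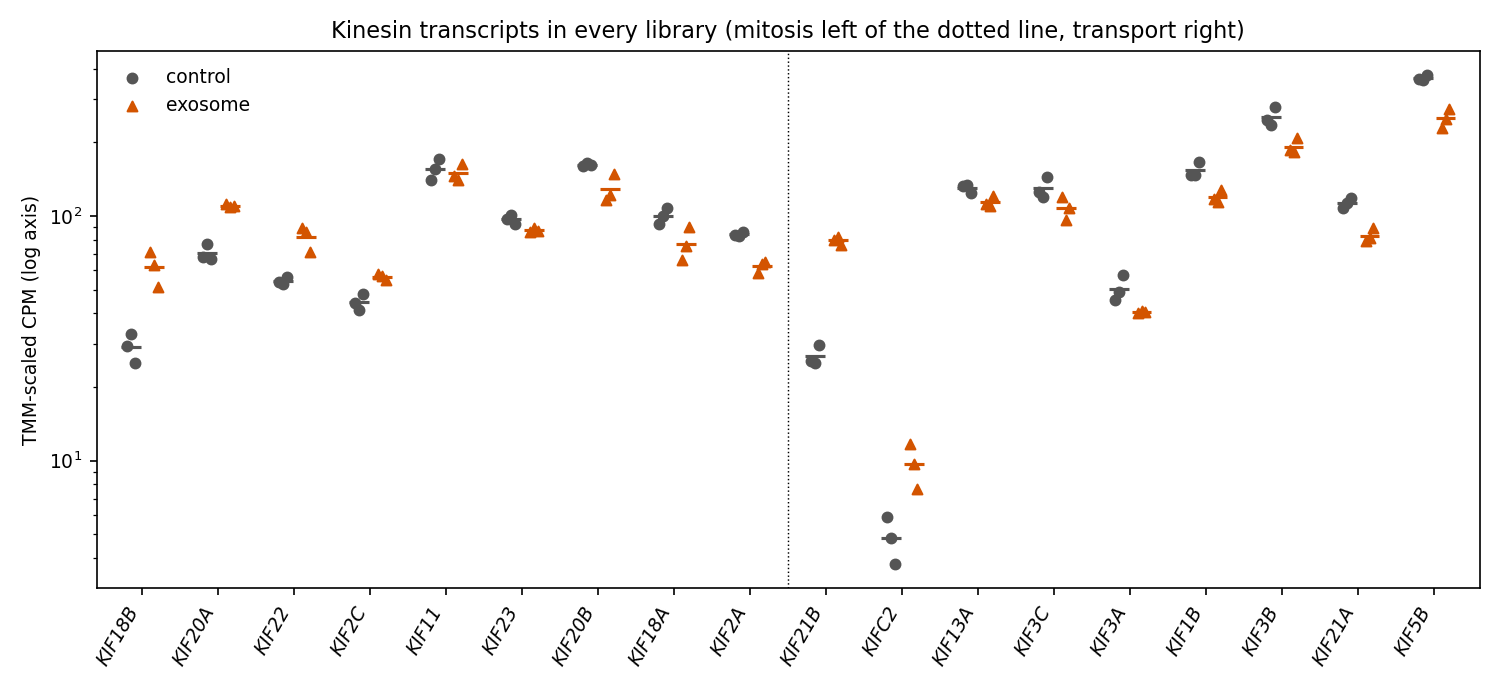
Level in every library of each called kinesin motor gene and of KIF11 and KIF23, as CPM scaled with TMM factors on a log axis. Mitotic genes lie left of the dotted line and transport genes right of it. Every called gene has its 3 exosome points all above or all below its 3 control points, as for KIF21B at 76.3 to 82.1 against 25.1 to 29.8 CPM.

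**Figure D2:**
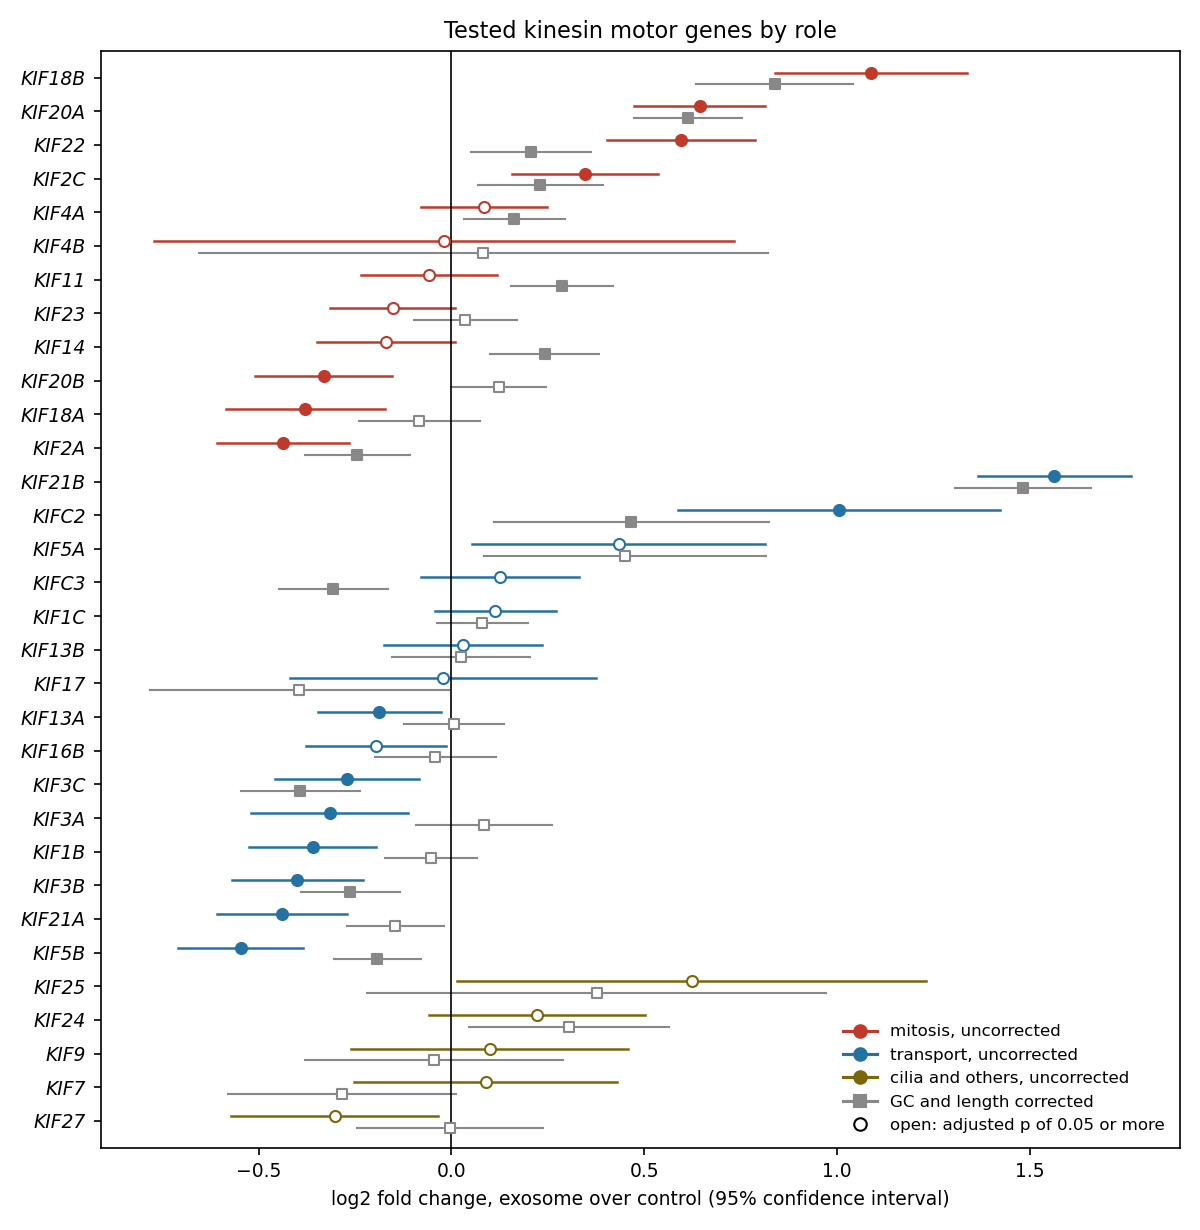
Log2 fold change of exosome over control for the 32 tested motor genes by role, with 95% confidence intervals that are not adjusted for the number of genes. Grey squares are the corrected values and open symbols did not pass the adjusted threshold. KIF21B, KIF18B and KIF20A lie right of 0 in both fits, while KIF18A, KIF20B and KIF1B move to near 0 on correction.

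Levels between genes were compared with the authors' FPKM, which divide by transcript length. KIF5B, the ubiquitous heavy chain of conventional kinesin, was the most abundant motor transcript in controls at 60.5 ± 2.07 FPKM (SD, n = 3). KIF3B, a subunit of the heterotrimeric kinesin-2, followed at 40.4 ± 3.89, and the spindle motor KIF11 at 31.1 ± 3.44. KIF18A, KIF23, KIF20B and KIF1C came next at 27.3 ± 2.40, 25.1 ± 0.929, 24.5 ± 0.475 and 24.1 ± 0.977 FPKM, and these neighbours did not differ beyond their spread. KIF21B at 2.62 ± 0.278 and KIFC2 at 1.28 ± 0.267 were low. With exosomes KIF5B was still highest at 43.8 ± 3.35, and KIF20A had moved from 21.4 ± 1.66 to 35.4 ± 0.705 FPKM, the second level of the family.

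The largest rise was that of KIF21B, a kinesin-4 motor known to carry cargo and to restrain microtubule growth at plus ends. The gene lies on the minus strand at chr1:200969390-201023700 (GENCODE 29, GRCh38). Its level was 25.6, 25.1 and 29.8 CPM in the controls and 79.9, 82.1 and 76.3 CPM with exosomes, here and below in replicate order. The groups lay far apart, and the spread within each was small beside the gap. KIF21B rose 2.96-fold, with a log2 fold change of 1.56 ± 0.10 (SE; edgeR adjusted p = 5.90e-11). After correction it was 1.48 (edgeR adjusted p = 4.48e-11). Its relative KIF21A (chr12:39293228-39443390, minus strand) went the other way, at 107.3, 112.7 and 118.0 CPM in controls and 78.7, 81.0 and 89.6 with exosomes. No exosome library reached the lowest control. The log2 fold change of KIF21A was -0.44 ± 0.08 (edgeR adjusted p = 0.000134), but -0.15 after correction (edgeR adjusted p = 0.0672), where the call was lost.

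Among the 12 tested motors of mitosis and cytokinesis, 4 rose (33.3%) and 3 fell (25%), with a median log2 fold change of -0.04. These shares stood beside 25.6% and 26.1% of all tested genes. Corrected, 7 were higher (58.3%) and 1 lower (8.33%), beside 18.2% and 17.3%, with a median of 0.18. No list was tested as a set. The promoters are shown because the mitotic genes share letters that the choice of members did not use. Many late cell-cycle genes are known to hold a CHR element, which the DREAM and MuvB complexes bind, next to a CCAAT box, which NF-Y binds. Stretches of 120 bases from RefSeq (GRCh38.p14), 110 before to 10 after the annotated start and read 5′ to 3′ on the gene's strand, are printed for 5 genes with CHR letters here and 2 without. Capitals mark TTTGAA or TTTAAA (CHR letters) and CCAAT, each on either strand, so that TTCAAA and ATTGG are reverse forms of TTTGAA and CCAAT.
KIF20A: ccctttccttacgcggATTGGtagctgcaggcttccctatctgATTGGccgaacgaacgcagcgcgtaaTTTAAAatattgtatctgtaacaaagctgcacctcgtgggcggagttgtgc
KIF18B: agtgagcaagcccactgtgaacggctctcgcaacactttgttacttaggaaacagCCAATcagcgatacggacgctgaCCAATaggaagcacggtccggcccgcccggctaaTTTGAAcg
KIF18A: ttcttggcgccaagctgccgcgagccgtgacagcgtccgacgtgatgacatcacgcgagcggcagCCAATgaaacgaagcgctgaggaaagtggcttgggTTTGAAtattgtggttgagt
KIF11: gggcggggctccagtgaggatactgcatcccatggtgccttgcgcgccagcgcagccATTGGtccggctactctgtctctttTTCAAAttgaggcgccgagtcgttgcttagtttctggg
KIF2C: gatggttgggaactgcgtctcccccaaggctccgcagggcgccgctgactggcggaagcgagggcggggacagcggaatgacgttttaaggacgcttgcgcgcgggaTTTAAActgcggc
KIF22: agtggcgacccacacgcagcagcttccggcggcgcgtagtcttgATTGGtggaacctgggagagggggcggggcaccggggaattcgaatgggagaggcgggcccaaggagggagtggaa
KIF2A: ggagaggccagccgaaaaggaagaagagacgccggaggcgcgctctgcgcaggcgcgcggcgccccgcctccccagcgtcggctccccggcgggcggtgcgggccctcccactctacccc
The stretches lie at chr5:138179002-138179121 (plus strand), chr17:44947764-44947883 (minus), chr11:28108147-28108266 (minus), chr10:92593020-92593139 (plus), chr1:44739727-44739846 (plus), chr16:29790641-29790760 (plus, the first of 2 starts) and chr5:62306096-62306215 (plus).

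RefSeq windows of 300 bases, 250 before to 50 after a start, were at hand for 30 of the 38 motor genes. CHR letters stood in 10 of 12 mitotic genes, in 2 of 11 transport genes (KIF5B and KIF16B) and in 0 of 7 cilia, signalling and other genes. Counted by window, that was 76.9% of 13 mitotic windows, 14.3% of 14 transport windows and 0 of 10 others, beside 17.1% of 14357 windows of tested genes. CCAAT letters stood in 10 mitotic genes, and 9 held both motifs. By window they were in 76.9%, 35.7% and 40% of the 3 groups, beside 34.1% of windows of tested genes. KIF22 and KIF2A had neither TTTGAA nor TTTAAA in these windows, and no other spelling of the CHR was searched. The CHR letters began 41 bases before the start in KIF20A, 28 in KIF11, 10 in KIF18A and 3 in KIF2C, and in KIF18B they lay just past the start. The calls of these 10 genes turned on the fit. From the counts, KIF18B, KIF20A and KIF2C rose, KIF18A and KIF20B fell, and KIF4A, KIF4B, KIF11, KIF14 and KIF23 were not called. After correction 6 were higher (the 3 risers with KIF4A, KIF11 and KIF14), 0 were lower and 4 were not called, KIF18A and KIF20B among them. A match is a description of letters, and binding was not measured.

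**Figure D3:**
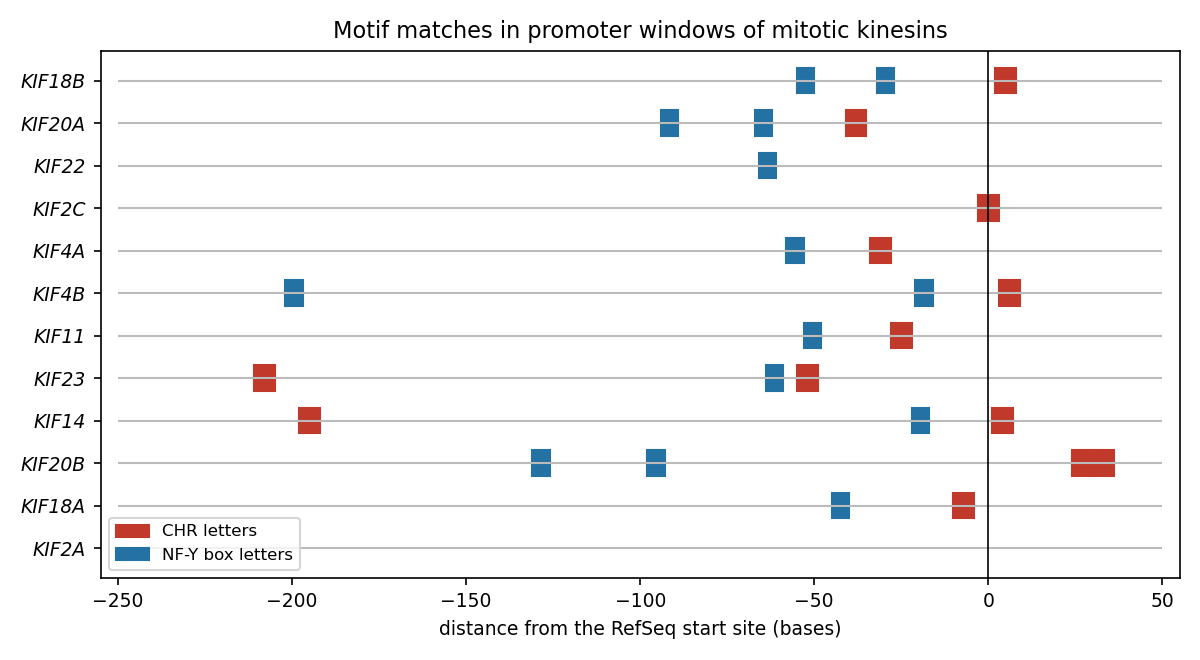
Positions of CHR letters (red) and CCAAT letters (blue, labelled as the NF-Y box) in the promoter windows of the 12 mitotic kinesins, by distance in bases from the RefSeq start, with the genes in order of fold change. Most CHR matches lie within 60 bases of the start. The risers KIF18B, KIF20A and KIF2C (top) hold them, as do KIF18A and KIF20B (bottom), the 2 genes that fell only before correction. The riser KIF22 and KIF2A, which fell in both fits, hold none. For KIF22 the first of its windows is drawn.

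KIF18B, a kinesin-8 motor that controls the length of astral microtubules, had the largest rise of the mitotic set (chr17:44924709-44947711, minus strand). It was at 29.3, 32.8 and 25.1 CPM in controls and at 71.0, 63.0 and 51.3 with exosomes. The lowest exosome library stood well above the highest control. KIF18B rose 2.13-fold, a log2 fold change of 1.09 ± 0.12 (edgeR adjusted p = 7.73e-07), and 0.84 after correction (edgeR adjusted p = 1.63e-06). KIF20A (MKLP2), which brings the chromosomal passenger complex to the anaphase midzone, lies at chr5:138178719-138187715. It was at 68.0, 76.8 and 66.5 CPM in controls and 111.5, 109.2 and 109.5 with exosomes, and the exosome libraries were nearly alike. KIF20A rose by a log2 fold change of 0.64 ± 0.08 (edgeR adjusted p = 2.32e-06), and by 0.61 after correction (edgeR adjusted p = 6.68e-07).

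KIF22, the chromokinesin Kid that pushes chromosome arms from the poles, was at 53.9, 52.7 and 56.5 CPM in controls and 89.0, 86.4 and 71.4 with exosomes (chr16:29790719-29805385). The groups did not overlap, and exosome library 3 was the lowest of its group. Its log2 fold change of 0.60 ± 0.09 (edgeR adjusted p = 2.05e-05) shrank to 0.21 on correction (edgeR adjusted p = 0.0360). KIF2C (MCAK), which takes tubulin off microtubule ends at centromeres, was at 43.9, 41.4 and 47.8 CPM in controls and 58.1, 56.7 and 54.6 with exosomes (chr1:44739818-44767767). Again every exosome library exceeded every control. KIF2C rose by 0.35 ± 0.09 (edgeR adjusted p = 0.00315), and by 0.23 after correction (edgeR adjusted p = 0.0258). The corrected calls of both genes were lost when any of control libraries 1 and 2 or exosome libraries 1 and 2 was left out, with edgeR adjusted p up to 0.144 for KIF22 and 0.112 for KIF2C.

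The 3 mitotic motors that fell were relatives of those that rose. KIF18A, the kinesin-8 that dampens chromosome oscillations at the metaphase plate, was at 92.4, 100.1 and 107.9 CPM in controls and 65.8, 75.2 and 89.8 with exosomes (chr11:28020620-28108308, minus strand). The highest exosome library came close to the lowest control without reaching it. Its log2 fold change was -0.38 ± 0.10 (edgeR adjusted p = 0.00319), and -0.08 after correction (edgeR adjusted p = 0.417). KIF20B (MPHOSPH1), a kinesin-6 of late cytokinesis, was at 160.0, 163.9 and 162.2 CPM in controls and 116.5, 121.9 and 148.1 with exosomes (chr10:89701610-89774939). Controls were tight and exosome library 3 was nearest to them. KIF20B had a log2 fold change of -0.33 ± 0.09 (edgeR adjusted p = 0.00274), which turned to 0.12 on correction (edgeR adjusted p = 0.116). KIF2A, a kinesin-13 that depolymerises microtubules at spindle poles, was at 83.7, 83.1 and 86.4 CPM in controls and 58.4, 63.7 and 65.0 with exosomes (chr5:62306162-62537249). It was the only mitotic motor lower in both fits, at -0.44 ± 0.08 (edgeR adjusted p = 0.000165) and, corrected, -0.24 (edgeR adjusted p = 0.00644). KIF2A shares 133278 annotated bases on its own strand with IPO11, and no source used here says how reads in shared bases were counted.

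The other 5 mitotic motors were not called from the counts. KIF11 (Eg5), the motor that slides antiparallel microtubules to separate spindle poles, was at 139.9, 156.0 and 171.1 CPM in controls and 145.2, 140.5 and 162.7 with exosomes. These ranges overlapped almost wholly, and the log2 fold change of -0.06 had a 95% interval of -0.24 to 0.12 (edgeR adjusted p = 0.588). Corrected, it was 0.29 and passed (edgeR adjusted p = 0.00142), as did KIF14 at 0.24 (edgeR adjusted p = 0.00872) and KIF4A at 0.16 (edgeR adjusted p = 0.0474). Leaving out any library other than control 3 ended the corrected call of KIF4A (edgeR adjusted p up to 0.166), and leaving out exosome library 1 that of KIF14 (edgeR adjusted p = 0.0566). KIF14, which works at the midbody with citron kinase, was at -0.17 before correction, and KIF4A, a chromokinesin of the midzone, at 0.08. KIF23 (MKLP1), the motor subunit of centralspindlin, was at 97.5, 101.3 and 93.0 CPM in controls and 86.0, 89.4 and 87.0 with exosomes. Its groups did not overlap, yet its log2 fold change of -0.15 did not pass (edgeR adjusted p = 0.108), and corrected it was 0.04. KIF4B, at 1.2 and 1.18 CPM, is a near-identical copy of KIF4A, so its reads are uncertain.

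Summed over the mitotic list, motors took 931 to 997 CPM in controls and 970 to 1014 with exosomes, ranges that overlapped. Of 5 markers of proliferating cells, PCNA and MCM2 rose by log2 fold changes of 0.56 and 0.49, while MKI67, CCNA2 and TOP2A, at 0.17, 0.17 and -0.14, were not called. Corrected, all 5 of these markers were higher, by 0.21 to 0.47. Whether a change in the share of dividing cells accompanied the motors was not tested.

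Pairs of relatives within 1 kinesin family were set side by side after their values had been seen, as ratios of the authors' FPKM. KIF21B over KIF21A (kinesin-4) was 0.159, 0.149 and 0.169 in controls and 0.678, 0.677 and 0.569 with exosomes. KIF18B over KIF18A (kinesin-8) was 0.263, 0.272 and 0.193 in controls and 0.894, 0.694 and 0.474 with exosomes. KIF20A over KIF20B (kinesin-6) was 0.853, 0.941 and 0.823, then 1.92, 1.80 and 1.48. In this last pair the order of the transcripts turned over, from KIF20B above KIF20A to KIF20A above KIF20B in all 3 libraries. KIF2C over KIF2A (kinesin-13) went from 0.589, 0.560 and 0.622 to 1.12, 1.0 and 0.944. Since each pair was picked for a riser and a faller, the direction and the gap between groups follow from that choice, and no test is given. In each pair the riser was richer in GC than its relative, at 59.7% and 42.1%, 58.4% and 37.0%, 48.4% and 34.2%, and 50.4% and 41.6% in the order above. The log2 changes of the ratios were 2.01, 1.47, 0.99 and 0.79, and the corrected fold changes of the paired genes differed by 1.63, 0.92, 0.49 and 0.47 log2 units.

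Of the 15 tested transport motors, 2 rose (13.3%) and 7 fell (46.7%), with a median log2 fold change of -0.19. These shares stood beside 25.6% and 26.1% of all tested genes. After correction 2 were higher (13.3%) and 4 lower (26.7%), beside 18.2% and 17.3%, with a median of -0.04. The summed level of the transport motors was 1560 to 1665 CPM in controls and 1341 to 1436 with exosomes, and these ranges did not overlap. The motor with the largest difference in CPM was KIF5B, which with light chains carries vesicles, mitochondria and mRNA (chr10:32009010-32056431, minus strand). It was at 362.2, 358.7 and 376.1 CPM in controls and 228.9, 249.0 and 272.7 with exosomes. Every exosome library lay far below every control. KIF5B had a log2 fold change of -0.55 ± 0.08 (edgeR adjusted p = 8.71e-06), and of -0.19 after correction (edgeR adjusted p = 0.00926). That corrected call was lost without exosome library 1 (edgeR adjusted p = 0.0741). The neuronal heavy chain KIF5A, at 6.81 ± 1.59 and 9.15 ± 1.19 CPM, was not called at 0.43 (edgeR adjusted p = 0.0523). It was called higher in 7 of 14 other settings without the correction (other scalings, filters and tools, a replicate block, a stricter threshold or 1 library left out), with adjusted p from 0.0113 to 0.22 over all 14.

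The 3 KIF3 subunits, of the kinesin-2 motors that drive intraflagellar and vesicle transport, were all lower before correction. KIF3B (chr20:32277664-32335011) was at 246.2, 235.9 and 278.4 CPM in controls and 185.8, 183.1 and 207.8 with exosomes. KIF3C (chr2:25926596-25982749, minus strand), a partner subunit of KIF3A in some cells, was at 125.4, 120.0 and 144.9 and then at 119.4, 96.0 and 107.9 CPM. The KIF3C groups nearly touched, since control library 2 and exosome library 1 were almost equal. KIF3B and KIF3C had log2 fold changes of -0.40 ± 0.08 and -0.27 ± 0.09 (edgeR adjusted p = 0.000346 and 0.0153), and of -0.26 and -0.39 after correction (edgeR adjusted p = 0.00229 and 0.000412). KIF3C is rich in GC at 55.5%, and it was the only 1 of 4 kinesins between 55% and 60% GC that fell. KIF3A, the usual partner of KIF3B, was at 45.3, 49.0 and 57.1 CPM in controls and 40, 41.0 and 40.7 with exosomes. The exosome values were almost equal, all below the lowest control. Its log2 fold change of -0.32 ± 0.10 (edgeR adjusted p = 0.0103) became 0.085 on correction (edgeR adjusted p = 0.472). Without control library 3 the uncorrected calls of KIF3A and KIF3C were lost (edgeR adjusted p = 0.0872 and 0.0882), and without exosome library 2 that of KIF3C was too (edgeR adjusted p = 0.134). KIFAP3, the adaptor of this motor, was not called at -0.11, and was higher at 0.20 after correction. KIF17, the homodimeric kinesin-2, was low at 5.45 and 5.39 CPM and was not called.

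Kinesin-3 motors carry vesicle precursors, endosomes and mitochondria. KIF1B was at 146.9, 147.2 and 166.3 CPM in controls and 117.4, 114.0 and 127.3 with exosomes, without overlap. Its log2 fold change was -0.36 ± 0.08 (edgeR adjusted p = 0.000730), and -0.05 after correction. KIF13A, a motor of recycling endosomes, was at 132.9, 133.6 and 123.9 and then at 111.8, 109.9 and 121.0 CPM. Exosome library 3 lay just under control library 3. KIF13A was called narrowly at -0.19 ± 0.08 (edgeR adjusted p = 0.0457), and stood at 0.0062 after correction (edgeR adjusted p = 0.948). Leaving out any of libraries 1 and 2 of either group ended that call, with edgeR adjusted p up to 0.196. KIF1C, KIF13B and KIF16B were not called, at 0.11, 0.03 and -0.20. KIF1BP, which binds several kinesins and restrains their motor domains, fell from 75 ± 3.34 to 60.6 ± 2.93 CPM, with a log2 fold change of -0.31 ± 0.08 (edgeR adjusted p = 0.00428), and of -0.49 after correction (edgeR adjusted p = 3.16e-05).

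The kinesin-14 motors KIFC2 and KIFC3 belong to the class that walks to minus ends. KIFC2 was at 5.88, 4.81 and 3.78 CPM in controls and 11.7, 9.68 and 7.63 with exosomes. The groups did not overlap, but the 48 to 160 reads per library make this the least precise of the rises. KIFC2 rose 2.01-fold, a log2 fold change of 1.01 ± 0.20 (edgeR adjusted p = 0.000283), and 0.47 after correction (edgeR adjusted p = 0.0379). The corrected call did not survive leaving out control library 2 or 3, or exosome library 1 or 2 (edgeR adjusted p up to 0.164). KIFC2 overlaps FOXH1 on the other strand over 791 bases, and no source used here says whether counting used strand. KIFC3, a motor of epithelial junctions and the Golgi, was not called at 0.13 and was lower at -0.31 after correction (edgeR adjusted p = 0.00148).

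The 5 tested motors of cilia, signalling and other roles were few and low. None passed the test in either fit, beside 51.7% of all tested genes before correction and 35.4% after. For these 5 motors, adjusted p from edgeR lay between 0.0554 (KIF27) and 0.679 (KIF7, which works at the cilium tip in Hedgehog signalling) before correction. KIF25 and KIF27 had groups that did not overlap, at 1.91 ± 0.489 and 2.93 ± 0.546 CPM and at 16.1 ± 0.606 and 13.1 ± 0.870 CPM. Over all 32 tested motors, exosome libraries lay wholly above controls for 7 and wholly below for 13, and overlapped for 12. The groups did not overlap for 59.3% of all tested genes, with exosome libraries above for 29.2% and below for 30.2%.

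Kinesins followed the GC trend of the table. Across the 32 tested motors, Spearman's rho between log2 fold change and GC content was 0.71, beside 0.62 over all 12449 genes. After correction these were 0.05 and 0.04. The correction removes each library's trend on GC, so a value near 0 over all genes follows from it. For the 12 mitotic motors rho was 0.87 before and 0.44 after correction, and for the 15 transport motors 0.75 and -0.007. The points of a fit share the same 6 libraries, and genes are no independent replicates, so these values are a description. Among genes below 40% GC the median log2 fold change was -0.37. Of the 7 kinesins there (KIF3A, KIF5B, KIF11, KIF14, KIF18A, KIF20B and KIF27), 4 were lower and 0 higher. Between 55% and 60% GC the median was 0.31, and KIF18B, KIF21B and KIF22 were higher there while KIF3C was lower. The corrected values of KIF21B, KIF18B and KIF20A were 1.48, 0.84 and 0.61.

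**Figure D4:**
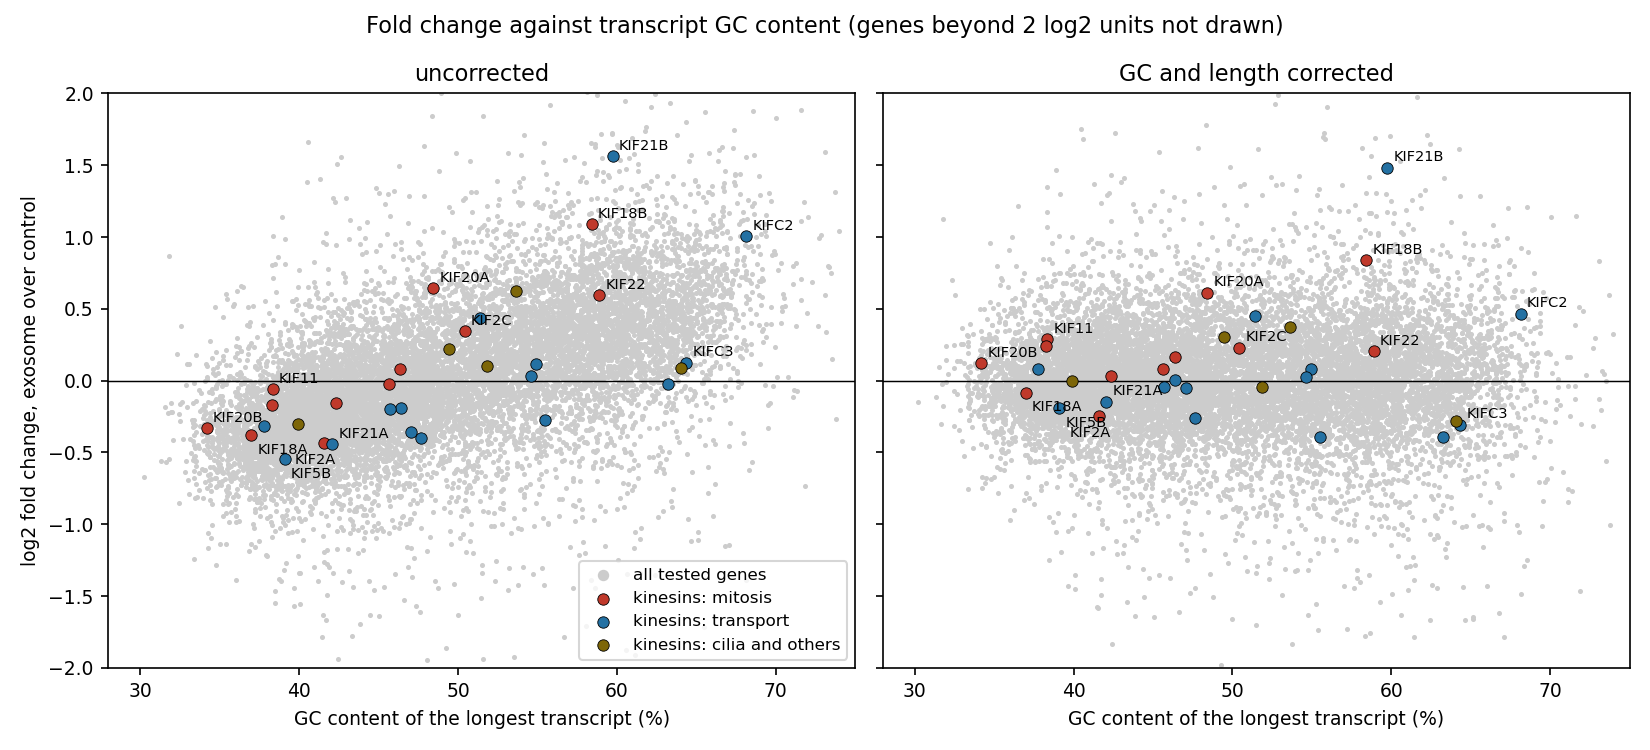
Log2 fold change of exosome over control against the GC content of the longest annotated transcript, for all tested genes (grey) and kinesins coloured by role, from the counts (left) and after correction (right). The cloud slopes upward on the left and lies flat on the right, as the correction is built to make it. On the right KIF21B, KIF18B and KIF20A stand at 1.48, 0.84 and 0.61.

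Genes that work with kinesins were read from lists in the same fit, beside the 25.6% higher and 26.1% lower among all tested genes. For the corrected counts of this and the later lists, those shares were 18.2% and 17.3%. Of 37 tested spindle partners, 16 rose and 9 fell, with a median log2 fold change of 0.11, and 17 were higher and 3 lower after correction. The kinase AURKB and its partner INCENP, core of the passenger complex that KIF20A carries, rose from 44.1 ± 5.93 to 91.9 ± 5.37 CPM and from 64.6 ± 2.49 to 95.3 ± 5.78 CPM. On the log2 scale these rises were 1.06 and 0.56, and 0.67 and 0.28 after correction (edgeR adjusted p = 4.46e-07 and 0.00373). PLK1, a mitotic kinase, and TACC3, a spindle protein, rose by 0.53 and 0.54, and by 0.30 and 0.19 corrected. Against the majority, the cytokinesis scaffold ANLN, the kinetochore protein SKA2 and the checkpoint kinase TTK fell, with log2 fold changes of -0.47, -0.48 and -0.45, and of -0.17, -0.25 and -0.22 corrected. The count of risers in this list was 10 without exosome library 2.

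Light chains, adaptors and kinesins without a KIF symbol gave 5 higher and 9 lower of 27 tested, and 3 and 5 after correction. The light chain KLC2 rose from 40.4 ± 4.07 to 69.1 ± 6.80 CPM, by 0.77 and, corrected, 0.43 log2 units. RHOT2, a mitochondrial GTPase of the motor's anchor, and MAP7D1, a microtubule protein that recruits kinesin-1, rose by 0.63 and 0.51, and were not called after correction at 0.16 and 0.01. SYNE1, a nuclear envelope anchor, fell, at -1.30 and, corrected, -0.84. HOOK3, a dynein adaptor, fell at -0.71 and was not called after correction at -0.17. CENPE, the kinetochore kinesin, lies outside the naming rule and is given because it is a motor. It fell from 123 ± 5.21 to 96.7 ± 7.18 CPM (edgeR adjusted p = 0.000940), and stood at 0.15 after correction, where it was not called.

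The opposite motor was lower in more members than higher. Of 27 tested dynein and dynactin genes, 4 rose and 11 fell, and 7 and 9 after correction. The dynein heavy chain DYNC1H1 fell from 2737 ± 231 to 1849 ± 143 CPM, a log2 fold change of -0.57 and, corrected, -0.26. CAPZA1, a capping subunit of dynactin, and DYNLT3, a light chain, fell, at -0.65 and -0.55, and at -0.49 and -0.35 corrected. The light chain DYNLL1, the regulator NDEL1 and the dynactin subunit DCTN3 rose by 0.49, 0.42 and 0.54, and by 0.20, 0.38 and 0.40 corrected.

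For the tracks themselves, 12 of 36 tested tubulins and microtubule regulators rose and 8 fell, but 4 rose and 6 fell after correction. TUBA4A, an alpha-tubulin, fell, at -0.95 and, corrected, -1.32 (edgeR adjusted p = 9.73e-11), and the microtubule-associated MAP1B fell at -0.72 and -0.34. KATNAL1, of the katanin severing family, fell at -0.72 and -0.29. The beta-tubulin TUBB4B and the tubulin-binding STMN3 rose by 0.63 and 0.73, and by 0.22 and 0.24 corrected. Tubulin genes are near-identical in places, and their reads may be split between copies.

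Of 22 tested cell-cycle factors upstream of mitotic genes, 4 rose and 8 fell, and 4 and 4 after correction. MYBL2, the MuvB partner of late cell-cycle promoters, rose from 173 ± 11.3 to 278 ± 16.1 CPM, by 0.68 and, corrected, 0.29 (edgeR adjusted p = 0.000553). E2F4, a DREAM subunit, rose by 0.56 and, corrected, 0.17. RB1 and E2F3 fell, at -0.76 and -0.50, and at -0.40 and -0.36 corrected. E2F1 rose by 0.45, and stood at -0.01 after correction, where it was not called.

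**Figure D5:**
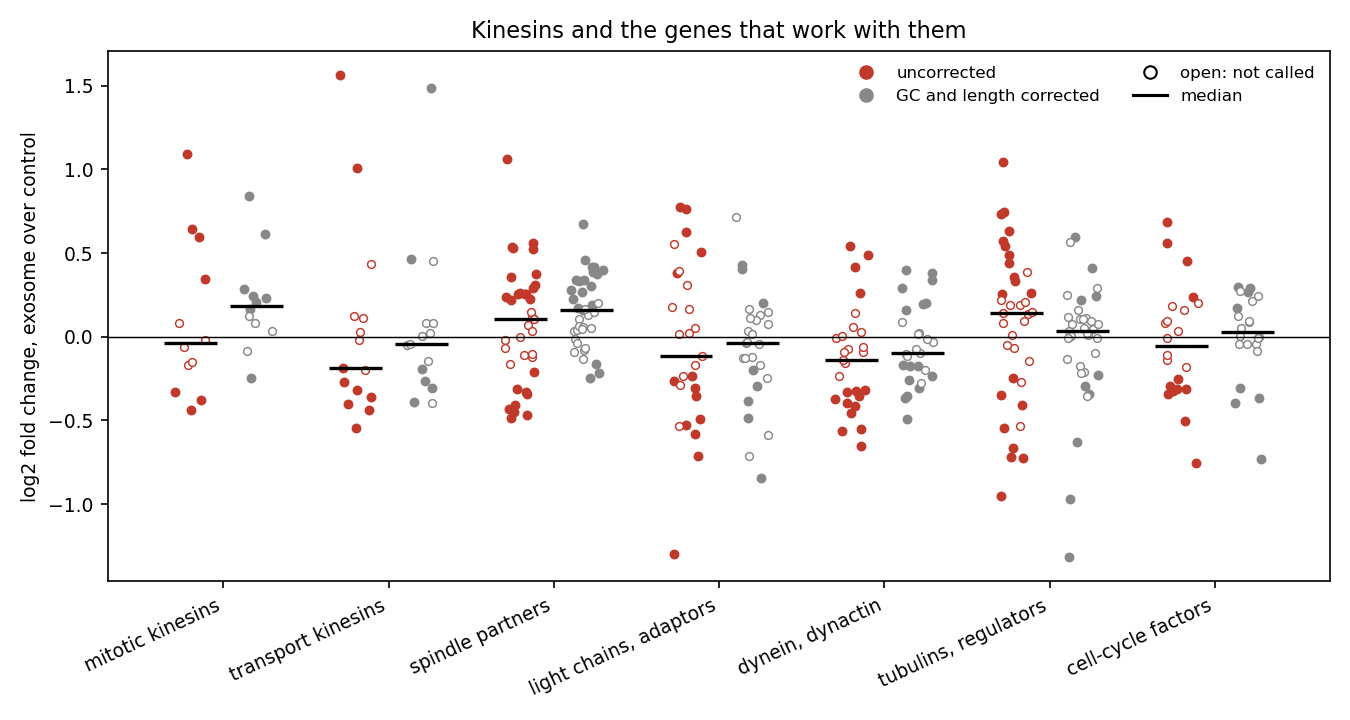
Log2 fold change of exosome over control for each tested member of the mitotic and transport kinesins and 5 partner lists, from the counts (red) and after correction (grey), with bars at the medians and open points for genes that did not pass. The median of mitotic kinesins moves from -0.04 to 0.18 and that of spindle partners from 0.11 to 0.16, while transport kinesins move from -0.19 to -0.04.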

How the data were processed

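Per the labels' protocols, RNA isolation used Trizol and library construction a NEBNext Ultra kit. STAR and GRCh38 (hg38) are named in the submitters' processing notes. No source used here names the program that counted reads, its gene annotation or whether strand was used.

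The deposited table holds whole-number read counts per gene and, per the file headers, a signal that the authors made by dividing counts by 1 size factor per library. The authors' FPKM values, log2 fold changes and p-values stand beside them in the deposited table, with no tool named for that test. Counts were used for every test, FPKM only for levels between genes and for ratios of relatives, and the signal for none. Table positions lie 1 below GENCODE 29 at start and end for all 15490 genes matched by Ensembl ID, so coordinates printed here are 1-based GENCODE positions.

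The test was the robust quasi-likelihood fit of edgeR 4.0.16 (R 4.3.3) with group as the only term, after filterByExpr and with TMM factors, and p-values were adjusted by Benjamini-Hochberg over 12449 genes, with a threshold of 0.05. CPM are counts over the library total times its TMM factor, given as mean ± SD of 3 libraries. Each SE equals the size of the log2 fold change divided by the root of its F statistic. For the corrected fit, the deviation of log2 CPM from a gene's mean was smoothed in every library (loess, span 0.3) on GC content and log2 length of the longest GENCODE 29 transcript, and the trend became an offset. Alternatives were DESeq2 1.42.0, limma-voom (limma 3.58.1), RLE size factors, library totals, another filter (1 CPM in at least 3 libraries) or none, a stricter threshold (0.01), leaving out libraries, and the replicate number as a block. The script was tested on simulated counts.

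Every tested motor could be named. Values in every library are given for called motors of at least 1 CPM whose groups do not overlap, and for KIF5B, KIF11 and KIF23. Of each partner list, up to 4 called members with the smallest adjusted p and up to 3 that moved against the majority are named. CENPE and KIFAP3 were added outside this rule. The members and lists were chosen with earlier results of these data known. Promoter letters were searched in RefSeq windows, and protein sequences were not used here.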

Additional observations from a re-analysis of the deposited data

How the results depend on the processing

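Against 6 motors higher and 10 lower, the correction for GC and length gave 9 and 5, and the replicate block with that correction also gave 9 and 5. Leaving out 1 library at a time gave 6 to 7 higher and 8 to 11 lower, and with the correction, added after the data were seen, 4 to 8 and 4 to 7, the 4 higher being without exosome library 1. Without both libraries numbered 3, also added later, there were 7 and 14. RLE size factors gave 7 and 9, DESeq2 6 and 9, limma-voom 7 and 10, and a threshold of 0.01 gave 6 and 7. Library totals alone gave 8 and 7. They moved the median of all tested genes from -0.0042 to 0.0776, and the share of calls that were higher from 49.6% to 60.4%. Of the 16 called motors, 13 kept their call in all 14 planned settings without the correction, and KIF3A, KIF3C and KIF13A did not. Of the 16 not called, 5 passed in at least 1 of these settings: KIF5A in 7, KIF16B and KIF27 in 2 each, and KIF1C and KIF14 in 1 each. Log2 fold changes of 10 motors turned sign under the correction. Without and with the block, the 6 called in either fit were KIF11 (0.29 and 0.29), KIF13A (0.0062 and 0.0076), KIF14 (0.24 and 0.24), KIF20B (0.12 and 0.12), KIF3A (0.085 and 0.086) and KIFC3 (-0.31 and -0.31). The 4 called in neither fit were KIF23 (-0.15 to 0.04), KIF4B (-0.02 to 0.08), KIF7 (0.09 to -0.28) and KIF9 (0.10 to -0.04). The cause was not tested.

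The groups share replicate numbers, but deviations of same-numbered libraries correlated at 0.07, 0.10 and 0.21, so the numbers were not taken to pair the samples. Each library correlated best with its own number, which is a hint from the data. With the replicate block, 7 motors were higher and 13 lower.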

Other observations

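In the authors' deposited table, 6 kinesin motor genes were higher and 9 lower at an adjusted p under 0.05, and 15 of the 16 calls of the edgeR fit were the same there. Of the 32 tested motor genes, 22 overlap another annotated gene, and 8 overlap a protein-coding gene. On opposite strands the latter overlaps ran from 61 bases (KIF18A with METTL15) to 22268 (KIF7 with TICRR). KIF20A shares 268 bases with BRD8, and KIF2A shares 16686 with DIMT1, both on opposite strands.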
